A study of Homo sapiens with 10 samples.

Results

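The peaks described here lay within 3 Mb of the centromere positions of 17 human chromosomes. They were taken from 4 peak lists of 1 cell line, for the antibody targets POLR1A, POLR2A, H3K4me3 and H3K9me3. A peak was a member if its summit lay at most 3 Mb from the position on GRCh38. The windows so defined ran from 120 to 126 Mb on chromosome 1, 91 to 97 on chromosome 2, 88 to 94 on 3, 47 to 53 on 4, 45 to 51 on 5, 57 to 63 on 6 and on 7, 42 to 48 on 8, 41 to 47 on 9, 37 to 43 on 10, 50 to 56 on 11, 33 to 39 on 12, 34 to 40 on 16, 21 to 27 on 17, 14 to 20 on 18, 23 to 29 on 19 and 25 to 31 on 20. Only position chose the members, and no measured value did. Of 59094 peaks in all lists, 1348 were members: 174 of 4122 for POLR1A, 216 of 20316 for POLR2A, 172 of 17447 for H3K4me3 and 786 of 17209 for H3K9me3. The 17 windows together span 102 Mb, and they were set beside flanks of the same length on the same chromosomes, over 3 and up to 6 Mb from the position, and beside the rest of those chromosomes.

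The cells were HCT116, an established human colorectal carcinoma line, labelled wild type with no treatment named. CUT&Tag was used, in which an antibody brings a transposase to its target and the DNA nearby is cut and tagged. The samples were 3 for POLR1A (the catalytic subunit of RNA polymerase I), 3 for POLR2A (that of RNA polymerase II), 1 for H3K4me3 and 3 for H3K9me3, each of 100000 to 200000 cells, and repeats were made on different days from newly thawed cells. The series asks how both polymerases lie relative to each other and to the chromatin around them. Each target has 1 list and the lists hold no value per replicate, so no difference has a test. Where a share below has an interval, it is an exact (Clopper-Pearson) 95% interval that covers counting error only. Such an interval treats peaks as independent, and many members lay close together, so the intervals are likely too narrow. The read depth behind the lists is unknown.

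Centromeres are built of long arrays of satellite repeats, and the pericentromere around them is held as constitutive heterochromatin, whose hallmark is trimethylation of lysine 9 on histone H3 (H3K9me3). Trimethylation of lysine 4 (H3K4me3) marks the promoters of active genes transcribed by RNA polymerase II. RNA polymerase I transcribes the ribosomal RNA genes in the nucleolus, except those of 5S ribosomal RNA, and pericentromeric chromatin often gathers at the nucleolar border. The sequence near centromeres is rich in recent duplications and in copies of genes, and reads from such copies cannot always be placed. How the authors treated reads of repeated sequence, and whether they removed regions of high signal with any antibody, is not stated in the sources. Sites in repeated or duplicated sequence are therefore uncertain, and control antibody samples were not used here.

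Only a small share of the POLR1A members lay at the 5′ end of a gene, and the promoters of 5 such genes are shown because they carry the contrast described below. Peaks of all 4 lists met within 1 kb of the starts of LINC00662, the neighbouring LINC02987 and ZNF91 alone, and LINC00662 and ZNF91 are shown. The others are USP22, which had the highest POLR2A value at a gene start, and the paralogs ZNF33A and ZNF33B on either side of the chromosome 10 position. Each sequence runs from 250 bases before to 50 after the start in RefSeq on GRCh38.p14, 5′ to 3′ on the strand of the gene. They lie at chr19:27793891-27794190 (minus strand) for LINC00662, chr19:23395422-23395721 (minus) for ZNF91, chr17:21042962-21043261 (minus) for USP22, chr10:38010425-38010724 (plus) for ZNF33A and chr10:42638521-42638820 (minus) for ZNF33B. Capitals mark matches to GGGCGG (the core of the GC box) or CCAAT on either strand.
LINC00662: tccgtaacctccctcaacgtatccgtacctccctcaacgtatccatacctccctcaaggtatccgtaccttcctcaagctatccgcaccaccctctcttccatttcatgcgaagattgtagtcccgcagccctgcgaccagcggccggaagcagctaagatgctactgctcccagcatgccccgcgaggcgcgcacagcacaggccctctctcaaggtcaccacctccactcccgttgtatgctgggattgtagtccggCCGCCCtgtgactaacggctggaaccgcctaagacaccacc
ZNF91: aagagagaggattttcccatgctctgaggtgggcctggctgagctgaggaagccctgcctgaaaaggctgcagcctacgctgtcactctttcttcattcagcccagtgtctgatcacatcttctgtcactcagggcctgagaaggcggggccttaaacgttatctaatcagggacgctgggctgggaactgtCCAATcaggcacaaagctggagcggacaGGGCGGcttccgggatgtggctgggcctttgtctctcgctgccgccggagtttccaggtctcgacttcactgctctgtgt
USP22: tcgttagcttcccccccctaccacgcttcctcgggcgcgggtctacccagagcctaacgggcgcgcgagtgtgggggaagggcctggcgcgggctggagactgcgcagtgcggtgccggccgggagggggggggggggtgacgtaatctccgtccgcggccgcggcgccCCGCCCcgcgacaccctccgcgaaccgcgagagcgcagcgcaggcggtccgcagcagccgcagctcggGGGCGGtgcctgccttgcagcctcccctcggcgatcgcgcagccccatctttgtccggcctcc
ZNF33A: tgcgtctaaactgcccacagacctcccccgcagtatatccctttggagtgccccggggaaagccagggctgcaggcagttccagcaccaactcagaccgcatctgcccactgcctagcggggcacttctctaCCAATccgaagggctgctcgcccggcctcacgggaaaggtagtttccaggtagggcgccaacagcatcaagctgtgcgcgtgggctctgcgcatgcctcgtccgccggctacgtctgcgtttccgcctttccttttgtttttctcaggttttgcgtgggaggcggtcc
ZNF33B: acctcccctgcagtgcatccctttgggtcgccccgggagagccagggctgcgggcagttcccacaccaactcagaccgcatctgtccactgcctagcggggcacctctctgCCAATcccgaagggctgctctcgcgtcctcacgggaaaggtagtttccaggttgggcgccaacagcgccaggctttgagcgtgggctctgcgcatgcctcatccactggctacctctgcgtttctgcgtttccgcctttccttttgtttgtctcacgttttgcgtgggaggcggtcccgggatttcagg
Of 34961 RefSeq promoters of the same length, 45% held GGGCGG on either strand, 34.6% held CCAAT and 11.5% held TATAAA. LINC00662 had 1 GGGCGG match, ZNF91 had 1 of each of the first 2 motifs, USP22 had 2 of GGGCGG, and ZNF33A and ZNF33B had 1 CCAAT each. No TATAAA lay in these 5 windows. The USP22 promoter was 75.7% G and C with 41 CpG dinucleotides, against medians of 58.7% and 14 over all promoters. ZNF33A and ZNF33B were identical at 254 aligned bases, with 24 mismatches and 44 gap positions (78.9% identity). The H3K9me3 peak covered 244 of the 300 bases at ZNF91 and none at LINC00662, where it lay further into the gene. The POLR1A peak covered 68 bases at ZNF91, 98 at LINC00662, 116 at USP22, 189 at ZNF33A and 217 at ZNF33B.

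POLR1A and H3K9me3 peaks were denser in the windows than in the flanks, and POLR2A and H3K4me3 peaks were sparser. POLR1A had 1.71 peaks per Mb in the windows and 1 in the flanks (174 and 102 peaks), with more in the window than in the flank on 8 chromosomes, fewer on 7 and as many on 2. The POLR1A ratio of 1.71 was not kept by wider windows: with 5 Mb on each side it was 0.984. Without chromosome 4, which held the most POLR1A members, it was 1.37. Of the 174, 82 lay in 7 clusters described below, which together span 526 kb. The members outside these clusters were fewer than the 102 flank peaks, among which no clusters were sought. H3K9me3 had 7.71 peaks per Mb in the windows and 5.79 in the flanks (786 and 591 peaks), higher on 11 chromosomes and lower on 6. Its ratio of 1.33 likewise turned with the width, to 0.840 for windows of 2 Mb on each side, and was 1.20 without chromosome 17. POLR2A had 2.12 peaks per Mb in the windows and 5.08 in the flanks (216 and 518 peaks), lower on 14 of 17 chromosomes. H3K4me3 had 1.69 and 4.24 (172 and 432 peaks), lower on 12 chromosomes, higher on 3 and equal on 2. Members made up 4.22% of the POLR1A list (95% interval 3.63 to 4.88), 1.06% of the POLR2A list (0.927 to 1.21), 0.986% of the H3K4me3 list (0.845 to 1.14) and 4.57% of the H3K9me3 list (4.26 to 4.89).

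**Figure D1:**
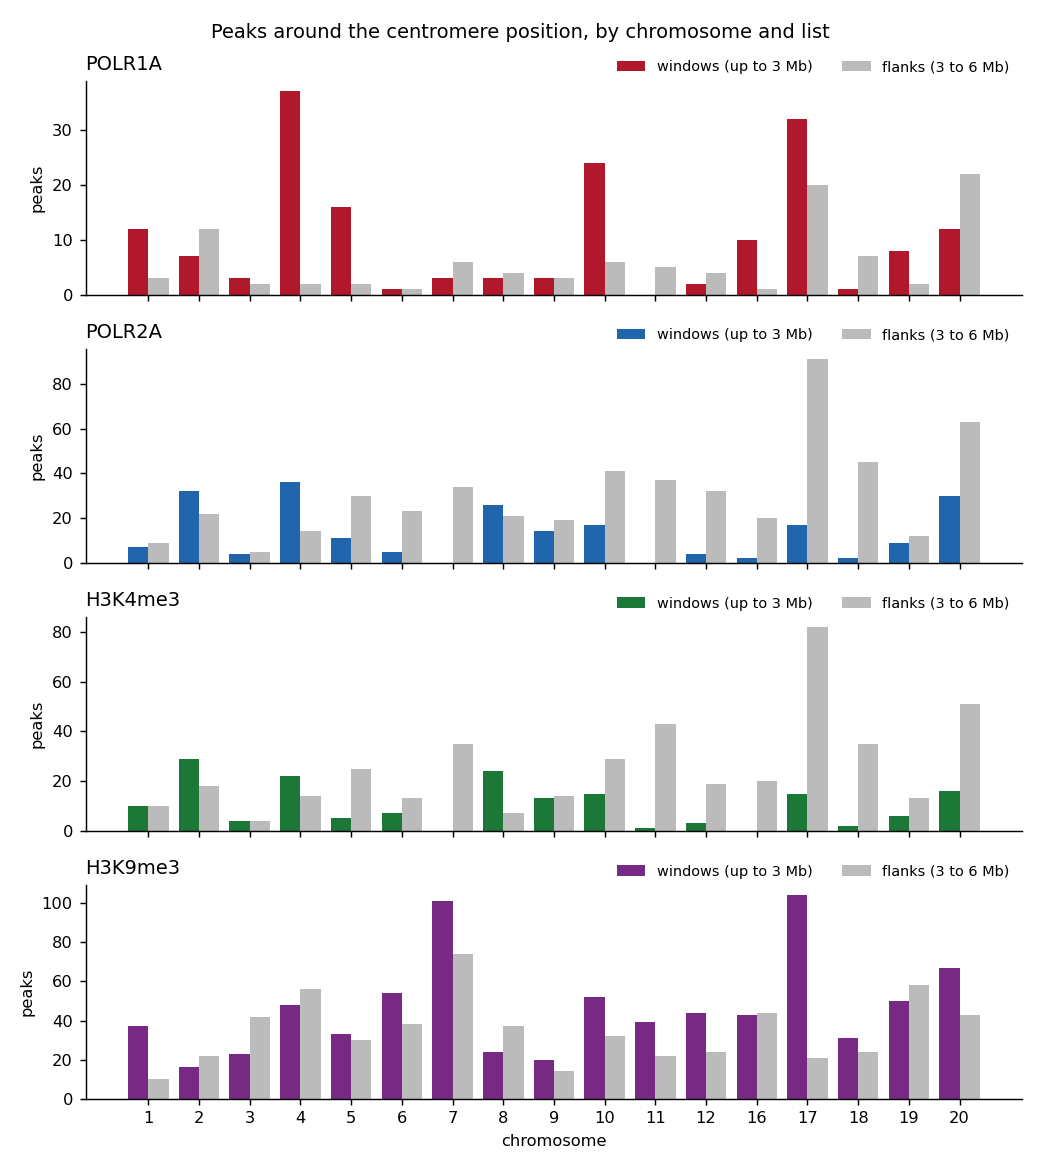
Number of peaks of each list (vertical axes) in the window of each chromosome, up to 3 Mb from the centromere position (coloured bars), and in its flanks, 3 to 6 Mb away (grey bars). POLR1A members stand highest on chromosomes 4 (37), 17 (32) and 10 (24), and H3K9me3 members on chromosomes 17 (104) and 7 (101).

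The chromosomes differed far more than the totals. Chromosomes 4, 17, 10 and 5 held 109 of the 174 POLR1A members (62.6%), with 37, 32, 24 and 16. Chromosomes 1 and 20 held 12 each, chromosome 16 held 10, chromosome 19 held 8 and chromosome 2 held 7. Chromosomes 3, 7, 8 and 9 had 3 each, chromosome 12 had 2, chromosomes 6 and 18 had 1 each, and chromosome 11 had none. Window and flank differed most on chromosome 4, with 37 POLR1A peaks in the window and 2 in the flanks. In the other direction, chromosome 20 had 12 in the window and 22 in the flanks.

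H3K9me3 was found in every window. Chromosomes 17 and 7 had 104 and 101 peaks, together 26.1% of the H3K9me3 members, and the fewest were on chromosome 2 with 16 and chromosome 9 with 20. The others had 67 on chromosome 20, 54 on 6, 52 on 10, 50 on 19, 48 on 4, 44 on 12, 43 on 16, 39 on 11, 37 on 1, 33 on 5, 31 on 18, 24 on 8 and 23 on 3. On chromosome 17 the window held 104 and the flanks 21, and on chromosome 3 the window held 23 and the flanks 42. Chromosomes 7 and 17 were alike in H3K9me3 and unlike in POLR1A, with 3 and 32 members.

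POLR2A and H3K4me3 members ranked the chromosomes differently, apart from chromosome 4, which held the most members of both POLR1A and POLR2A. Chromosome 4 had 36 POLR2A peaks, chromosome 2 had 32, chromosome 20 had 30 and chromosome 8 had 26, together 57.4% of the POLR2A members. Chromosomes 10 and 17 had 17 each, chromosome 9 had 14, chromosome 5 had 11, chromosome 19 had 9, chromosome 1 had 7, chromosome 6 had 5, chromosomes 3 and 12 had 4 each and chromosomes 16 and 18 had 2 each. Chromosomes 7 and 11 had no POLR2A member, against 34 and 37 peaks in their flanks. H3K4me3 members numbered 29 on chromosome 2, 24 on 8, 22 on 4, 16 on 20, 15 on 10 and on 17, 13 on 9, 10 on 1, 7 on 6, 6 on 19, 5 on 5, 4 on 3, 3 on 12, 2 on 18, 1 on 11 and none on 7 and 16. The windows with more POLR2A peaks than their flanks were those of chromosomes 2 (32 and 22), 4 (36 and 14) and 8 (26 and 21).

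The chromatin under the POLR1A members differed from that under other POLR1A peaks. Of the 174, 117 overlapped an H3K9me3 peak by at least 1 base (67.2%, 95% interval 59.7 to 74.2), against 28.4% of 102 in the flanks and 12.6% of 3068 in the rest of the same chromosomes, and 15.6% of all POLR1A peaks on chromosomes 1 to 22 and X. The share was higher in the window than in the rest on 11 of the 13 chromosomes with at least 3 POLR1A members. It differed between chromosomes, with 33 of 37 on chromosome 4, 27 of 32 on 17, 17 of 24 on 10, 11 of 16 on 5 and all 10 on 16, but 3 of 12 on chromosome 1, none of 7 on chromosome 2 and none of 3 on chromosome 8. Leaving out chromosome 4, which held the most POLR1A members, gave 61.3% of 137. The 7 clusters described below held 82 of the 174. In those of chromosome 4, 21 of 21 and 11 of 12 overlapped H3K9me3, and in those of chromosome 17, 9 of 12 and 7 of 7. On chromosomes 5, 10 and 16 it was 10 of 12, 13 of 13 and 5 of 5. The share among the other members was lower than 67.2%, and still above the 28.4% of the flanks. The part of repeated sequence and of read placement in this overlap was not tested.

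POLR1A members overlapped the other 2 lists less than POLR1A peaks elsewhere. POLR2A was found at 56 of them (32.2%, 25.3 to 39.7), against 63.7% in the flanks, 74.8% in the rest and 71.7% of all POLR1A peaks, and the share was lower in the window on 11 of 13 chromosomes. H3K4me3 was found at 34 (19.5%, 13.9 to 26.2), against 57.8% in the flanks, 69.3% in the rest and 65.8% of all, lower on 12 of 13. The direction of these differences from the rest held under each of the 8 alternatives tried, where the share with H3K9me3 was 37.9% to 83.02% in the windows and 6.91% to 12.8% in the rest, and the share with POLR2A was 14.4% to 39.8% in the windows and 49.1% to 91.9% in the rest.

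**Figure D2:**
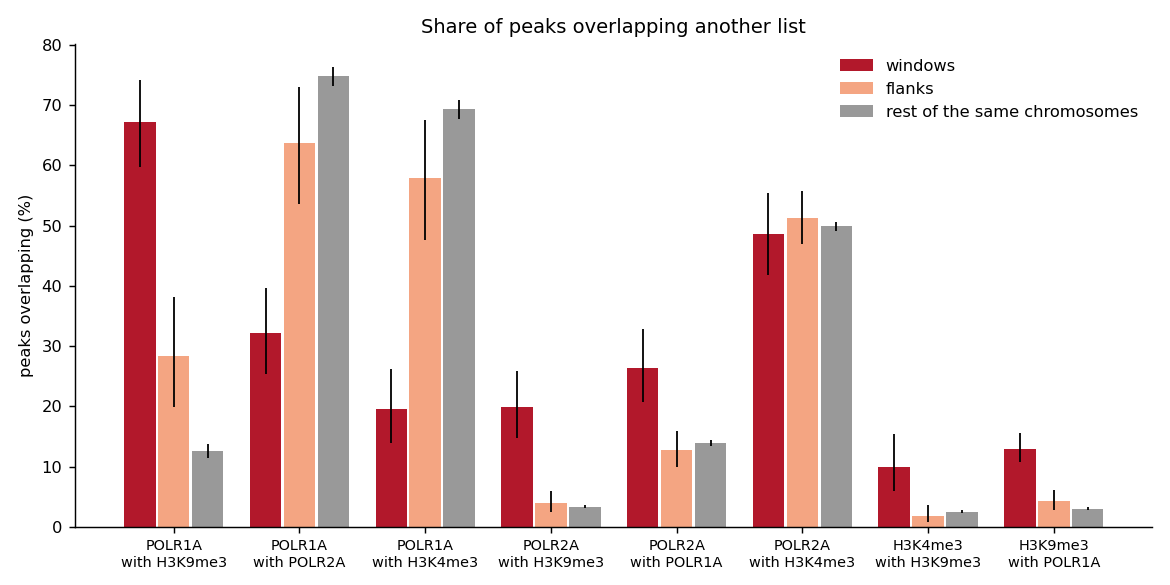
Percent of peaks of the first list that share at least 1 base with a peak of the second, in the windows (dark red), the flanks (orange) and the rest of the same chromosomes (grey), with exact 95% binomial intervals that cover counting error only. POLR1A with H3K9me3 stands at 67.2% in the windows and 12.6% in the rest, and POLR1A with POLR2A at 32.2% and 74.8%.

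The POLR2A and H3K4me3 members also met H3K9me3 more often than elsewhere, while their overlap with each other was close to the background. Of 216 POLR2A members, 43 overlapped H3K9me3 (19.9%, 14.8 to 25.9), against 3.86% in the flanks, 3.33% in the rest and 3.53% of all POLR2A peaks, higher on 9 of 13 chromosomes. With POLR1A the count was 57 (26.4%, 20.6 to 32.8), against 12.7% in the flanks, 13.9% in the rest and 13.7% of all. With H3K4me3 it was 105 (48.6%), against 51.4% in the flanks, 49.9% in the rest and 50% of all. Chromosomes 4, 10 and 5 held 13, 7 and 6 of the 43 POLR2A members on H3K9me3. The 7 POLR1A clusters described below held 29 of the 216 POLR2A members. Of 172 H3K4me3 members, 17 overlapped H3K9me3 (9.88%, 5.86 to 15.4), against 1.85% in the flanks, 2.45% in the rest and 2.36% of all, higher on 8 of 13 chromosomes. With POLR1A there were 34 (19.8%), against 15.04% in the rest and 14.6% of all, and with POLR2A 103 (59.9%), against 55.9% in the rest and 55.7% of all.

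Seen from the H3K9me3 list, most members carried neither polymerase. POLR1A overlapped 102 of 786 (12.98%, 10.7 to 15.5), against 4.23% in the flanks, 3.03% in the rest and 3.44% of all H3K9me3 peaks, and the share was higher in the window on 9 of 17 chromosomes and lower on 8. POLR2A overlapped 40 (5.09%, 3.66 to 6.87), against 4.34% in the rest and 4.21% of all, and H3K4me3 overlapped 17 (2.16%, 1.26 to 3.44), against 2.76% in the rest and 2.47% of all. H3K9me3 peaks with POLR1A had a median fold enrichment of 6.34 and a median width of 793 bp, and those without it 4.48 and 448 bp. The fold enrichment of a peak is the authors' linear ratio and is compared only within 1 list.

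Distance from the position ordered the lists differently. In steps of 1 Mb from 0 to 6 Mb, POLR2A density was 0.5, 1.71, 4.15, 4.12, 5.76 and 5.35 peaks per Mb, and H3K4me3 density was 0.176, 1.24, 3.65, 2.79, 4.97 and 4.94. POLR1A stayed between 0.794 and 1.91 peaks per Mb, with 1.56 in the innermost step. H3K9me3 was 4.53 in the innermost step, 9.09 and 9.50 in the next 2 and then 6.71, 5.65 and 5.03. Modelled satellite arrays and assembly gaps lie around the positions and may reach beyond the innermost step. Their place and length were not measured here.

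Over all peaks, overlap with H3K9me3 was lower in each step outward. For POLR1A it was 75.5% of 53 peaks, 66.1% of 56, 61.5% of 65, 40.6% of 32, 25.6% of 43 and 18.5% of 27. The innermost POLR1A step rested on chromosome 4, whose clusters, described below, held 21 and 12 of the 53. Of these, 21 and 11 overlapped H3K9me3, and among the other peaks of that step the share was lower than in the next. For POLR2A the overlap was 94.1% of 17, 25.9% of 58, 8.51% of 141, 5.00% of 140, 4.08% of 196 and 2.75% of 182. The POLR2A peaks of the innermost step were few, 12 of them on chromosome 4 and 4 on chromosome 20, and the 1 of 17 without H3K9me3 lay on chromosome 2. The 12 on chromosome 4 lay in its clusters, described below as resembling regions known for high signal with any antibody. Of the 6 H3K4me3 peaks in the innermost step, 5 overlapped H3K9me3.

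**Figure D3:**
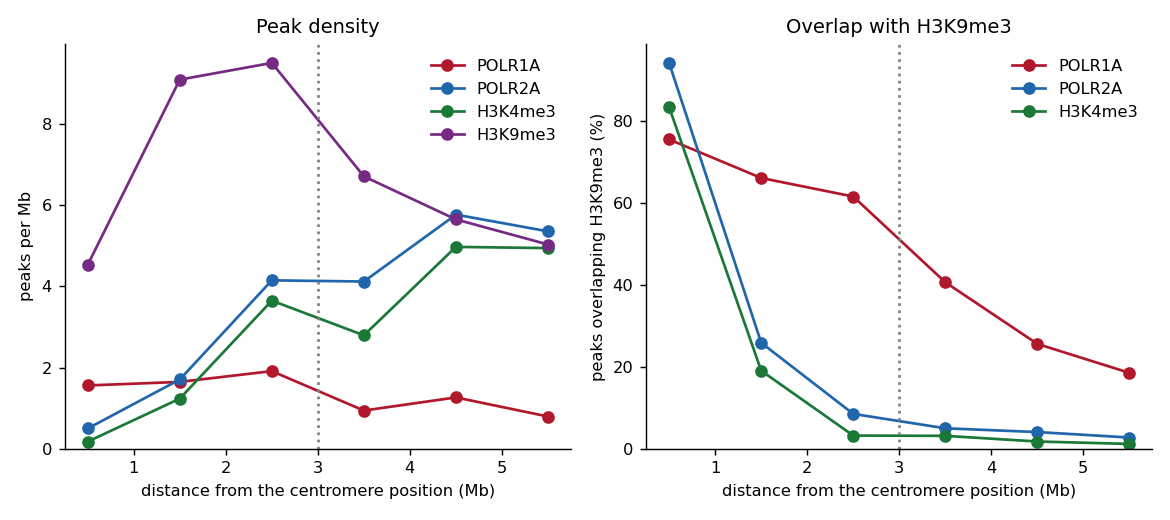
Left, peaks per Mb of each list in steps of 1 Mb from the centromere position. Right, percent of POLR1A, POLR2A and H3K4me3 peaks in each step that overlap an H3K9me3 peak, with the edge of the windows at 3 Mb dotted. POLR2A starts at 0.5 peaks per Mb with 94.1% on H3K9me3 and reaches 5.35 peaks per Mb with 2.75%. Most POLR2A peaks of the innermost step lie in the clusters of chromosome 4.

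Peaks lay close to the edge of the windows on either side. The outermost H3K9me3 member had a fold enrichment of 5.50 at 2.9993 Mb from the position of chromosome 16, and the nearest H3K9me3 peak outside had 4.75 at 3.0004 Mb on chromosome 6. For POLR2A the pair had 3.82 at 2.99 Mb on chromosome 17 and 6.43 at 3.01 Mb on chromosome 20. The nearest POLR1A peak outside lay 3.01 Mb away on chromosome 9 with 9.21, and the nearest H3K4me3 peak outside lay 3.01 Mb away on chromosome 20 with 17.6.

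The POLR1A members fell into classes by what they overlapped. H3K9me3 alone was found at 78 (44.8%), with a median POLR1A fold enrichment of 5.37. POLR2A together with H3K9me3 was found at 25 (14.4%, median 8.48), and all 3 other lists met at 13 (7.47%, median 11.98). The active promoter class, with POLR2A and H3K4me3 and without H3K9me3, held 17 (9.77%, median 6.05), against 1782 of 3068 (58.1%) in the rest of the same chromosomes. The class with H3K9me3 alone made up 44.8% of the members and 3.26% of the rest. A further 36 overlapped no other list (20.7%, median 3.93), against 17.5% of the rest. The remaining 5 members were 3 with H3K4me3 alone, 1 with POLR2A alone and 1 with both histone marks.

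**Figure D4:**
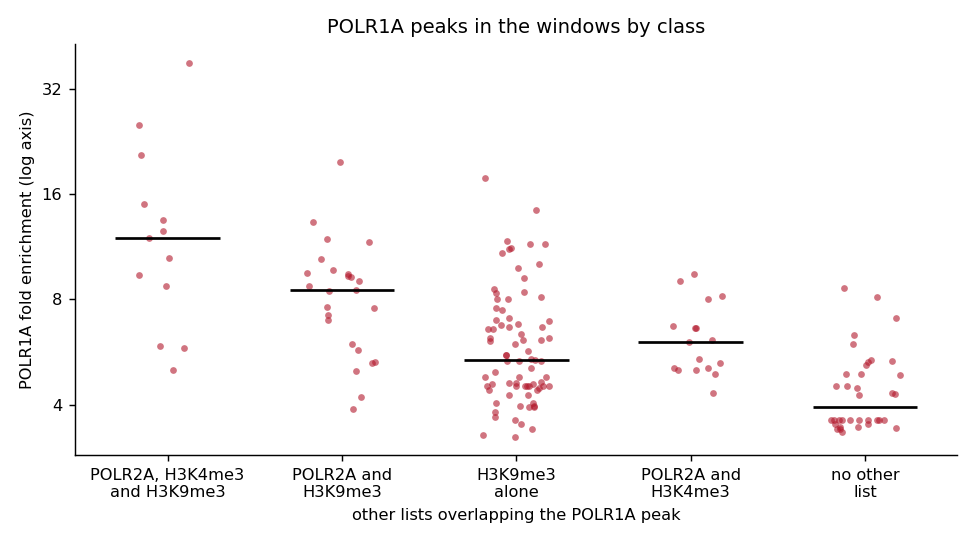
POLR1A fold enrichment (log axis) of each POLR1A member, by the other lists that overlap it. Points are single peaks spread sideways for view, and bars are medians, from 11.98 where all 4 lists met to 3.93 where no other list did.

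The median strength of the members was close to that of other peaks of their list, and the POLR1A members were wider. The median POLR1A fold enrichment was 5.46 in the windows, 5.56 in the flanks and 5.49 in the rest, with median widths of 349.5, 304.5 and 288 bp. Among POLR1A members 60.9% had a −log10 q of 5 or more, against 47.1% in the flanks and 37.3% in the rest. Widths of 1 kb or more occurred at 11 POLR1A members (6.32%) and at 13 peaks of the rest (0.424%). For H3K9me3 the medians were 4.61, 4.44 and 4.62, and the share at that q value was 34.0% in the windows, 22.5% in the flanks and 24.4% in the rest. POLR2A had medians of 5.26, 5.42 and 5.51, and H3K4me3 of 10.0, 9.68 and 8.99.

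Strong POLR1A members overlapped other lists most. Split into 3 groups of 58 by fold enrichment, 53.4% of the weakest, 60.3% of the middle and 87.9% of the strongest group overlapped H3K9me3, and 5.17%, 36.2% and 55.2% overlapped POLR2A. H3K9me3 members in 3 groups of 262 overlapped POLR1A in 8.40%, 8.02% and 22.5% of cases. POLR2A members in 3 groups of 72 overlapped H3K4me3 in 18.1%, 41.7% and 86.1% of cases, and H3K9me3 in 11.1%, 29.2% and 19.4%. Summits of overlapping pairs lay close. The median distance between POLR1A and H3K9me3 summits was 30 bp in the windows, 18 bp in the flanks and 95 bp in the rest, and between POLR1A and POLR2A summits 36, 62 and 61 bp in that order. Of 117 POLR1A and H3K9me3 pairs in the windows, 7 began or ended at the same base (5.98%), against 6.90% in the flanks and 6.72% in the rest.

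The POLR1A members were clustered. A neighbour of the same list lay within 10 kb of 94 members (54.0%), against 8.70% of POLR1A peaks in the rest. For H3K9me3 the shares were 36.5% and 19.2%, for POLR2A 27.8% and 30.2%, and for H3K4me3 37.2% and 45.5%. Chains of at least 4 POLR1A peaks with steps of at most 100 kb formed 7 clusters, which held 82 of the 174 POLR1A members (47.1%) in 526 kb, with 76 H3K9me3, 29 POLR2A and 10 H3K4me3 peaks. RefSeq placed no gene in any of the 7.

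**Figure D5:**
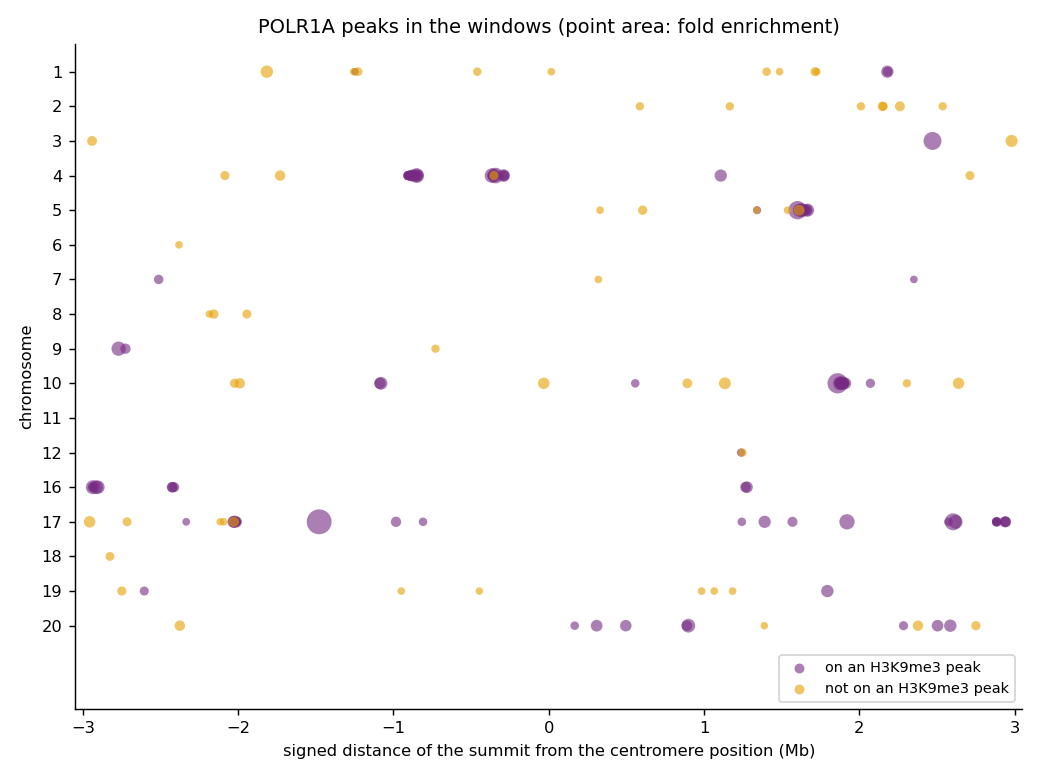
Position of each POLR1A member as the distance of its summit from the centromere position of its chromosome, negative toward lower coordinates, with point area in proportion to fold enrichment. Purple points overlap an H3K9me3 peak and orange points do not, and the clusters of chromosomes 4, 5, 10, 16 and 17 show as crowded purple points.

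Chromosome 4 had a pair of clusters on the lower side of the position. At chr4:49091958-49155073, 21 POLR1A peaks stood in 63.1 kb, every one on H3K9me3 and 6 with POLR2A, with fold enrichments of 3.24 to 13.5 and a median of 5.32. At chr4:49632590-49711833, 12 POLR1A peaks included 11 on H3K9me3 and had values of 3.28 to 15.02. Together these clusters held 33 of the 37 POLR1A members of the chromosome. They also held 12 of its 36 POLR2A members, and the other POLR2A members lay further from the position.

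Chromosome 10 had 1 cluster at chr10:41859290-41910063, with 13 POLR1A peaks on H3K9me3, 6 of them also with POLR2A and 3 with H3K4me3, and values of 3.95 to 25.2. On chromosome 5, 12 peaks at chr5:49537353-49667326 had values of 3.61 to 20.7, and 10 of them overlapped H3K9me3. On chromosome 16, 5 peaks at chr16:34062612-34097552 all overlapped H3K9me3, with a median of 10.9. On chromosome 17 the cluster at chr17:21883662-21991814 had 12 peaks, 9 on H3K9me3, and that at chr17:26880955-26940957 had 7, all on H3K9me3. Neither cluster of chromosome 17 held an H3K4me3 peak. The clusters of chromosomes 4, 5 and 10 resemble regions known for high signal with any antibody, and the part of such signal in their counts was not tested. Nor was it tested for the clusters of chromosomes 16 and 17.

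Some windows held long stretches with no peak of any list. The longest were 3.81 Mb on chromosome 11, 3.73 Mb on chromosome 9, 2.93 Mb on chromosome 18, 2.56 Mb on chromosome 12 and 2.17 Mb on chromosome 16, and the shortest of the 17 was 0.508 Mb on chromosome 7. POLR1A members were divided evenly between the sides, with 88 above the position and 86 below, while POLR2A had 89 above and 127 below and H3K9me3 329 above and 457 below.

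The strongest POLR1A and POLR2A site of the windows was shared by all 4 lists. At chr17:22521207-22521750 the POLR1A peak had a fold enrichment of 37.99, the POLR2A peak 49.6, the H3K4me3 peak 25.998 and the H3K9me3 peak 23.5, each among the 5 highest members of its list. Its summit lay 0.695 kb from MTCYBP13, a pseudogene copied from the mitochondrial cytochrome b gene, in a nuclear stretch annotated with further mitochondrial pseudogenes. Reads of the mitochondrial genome and of such a copy cannot always be told apart, so the site is uncertain. It also resembles regions known for high signal with any antibody, which was not tested.

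The next POLR1A sites had no gene near them. The peak at chr10:41859290-41860419 had POLR1A at 25.2, POLR2A at 26.7, H3K4me3 at 11.8 and H3K9me3 at 15.1, and lay 289 kb from the nearest annotated gene. The peak at chr5:49601237-49602984 had 20.7, 19.1, 10.6 and 12.9 in the same order and lay 794 kb from EMB. Both lie in clusters described above as resembling regions of high signal with any antibody, so the meeting of 4 targets there is uncertain. At chr3:93470390-93470792 POLR1A had 19.8, POLR2A 12.5 and H3K9me3 16.2, with no H3K4me3 peak. At chr17:26603734-26604331 POLR1A had 17.8 and H3K9me3 25.1, with neither POLR2A nor H3K4me3.

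The highest POLR1A member of each other chromosome was more modest. It was 15.02 on chromosome 4, 12.6 on 9, 11.9 on 16 and 11.7 on 20, all on H3K9me3 and with POLR2A. It was 9.44 on chromosome 1 at SRGAP2C, 9.41 on 19 at LINC00662, 6.12 on 2 at TMEM127 and 5.41 on 8 at the lncRNA LOC124901940, all with POLR2A and H3K4me3. On chromosome 7 it was 5.54 and overlapped H3K9me3 alone. On chromosomes 18 (4.89), 12 (4.51) and 6 (3.61, inside PRIM2) it overlapped no other list.

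The strongest H3K9me3 members all carried POLR1A. They were at chr17:25920036-25920473 with H3K9me3 at 26.5 and POLR1A at 14.4, chr17:26603527-26604534 with 25.1 and 17.8, chr16:34085147-34085540 with 24.3 and 11.5, chr17:23015953-23016855 with 24.1 and 6.58, and the site beside MTCYBP13. The first 4 had neither POLR2A nor H3K4me3, and whether they lie in regions of high signal with any antibody was not tested. Of the highest H3K9me3 member of each of the 17 chromosomes, those of 3, 4, 5, 9, 10, 16, 17 and 20 overlapped POLR1A and those of 1, 2, 6, 7, 8, 11, 12, 18 and 19 did not. On chromosome 7, with 101 H3K9me3 members, the highest had 11.9.

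All 4 lists met at 13 POLR1A members. Besides the sites on chromosomes 17, 10 and 5 already given, they were 4 on chromosome 4 with POLR1A at 5.80 to 15.02, 1 on chromosome 9 at 12.6, a further 1 on chromosome 10 at 11.98, a further 2 on chromosome 5 at 5.88 and 10.5, and 2 on chromosome 19. Those of chromosome 19 alone lay at gene starts. LINC00662, a lncRNA that shares its start region with LINC02987, had POLR1A at 9.41, POLR2A at 11.6, H3K4me3 at 12.8 and H3K9me3 at 5.94. ZNF91, a KRAB zinc finger gene whose protein is known to repress SVA retrotransposons, had 5.02, 4.28, 18.5 and 4.93. At LINC00662 the POLR2A and H3K4me3 peaks spanned the whole printed promoter, and the H3K9me3 peak at chr19:27793395-27793763 lay inside LINC00662 and covered the start of LINC02987.

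The highest POLR2A values on H3K9me3 were at such shared sites. The 5 highest of the 43 POLR2A members on H3K9me3 had 49.6, 26.7, 19.1, 15.1 and 14.9, on chromosomes 17, 10, 5, 5 and 10, and all 5 also carried POLR1A and H3K4me3. Of the 43, 38 overlapped POLR1A, 12 of them with H3K4me3 and 26 without. The 36 POLR1A members with no other list reached 8.63 at chr10:41133810-41134017, 8.10 at chr10:39967513-39967742, 7.07 at chr5:49612257-49612548, 6.32 at chr17:21972976-21973229 and 5.95 at chr10:40892163-40892545.

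Most members lay outside genes. The POLR1A summit was in no annotated gene at 158 of 174 members (90.8%), against 48.04% in the flanks and 43.2% in the rest. For H3K9me3 the intergenic shares were 84.4%, 56.9% and 51.3%, for POLR2A 50.9%, 34.7% and 37.99%, and for H3K4me3 25.6%, 18.3% and 19.8%. Only 18 POLR1A members (10.3%) lay within 1 kb of a RefSeq 5′ end, against 47.8% of the rest. Chromosome 8 starts were not used here in counts by 5′ end.

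At protein-coding genes the shares with POLR1A, POLR2A and H3K4me3 in the windows were close to those outside. Of 134 protein-coding genes with a known 5′ end in the windows, 16 had POLR1A within 1 kb of it (11.9%, 6.98 to 18.7), against 12.04% of genes outside and 12% of all. POLR2A was at 51 (38.1%, against 44.1% outside and 44% of all) and H3K4me3 at 72 (53.7%, against 58.5% outside and 58.5% of all). H3K9me3 was at 6 (4.48%, 1.66 to 9.49, against 2.33% outside and 2.35% of all). Of the 16 genes with POLR1A, 14 had POLR2A and 15 had H3K4me3.

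Counting either gene end where the 5′ end is not known, 22 protein-coding genes in the windows had POLR1A. The highest was 9.44 at the neighbouring ends of SRGAP2C, a human-specific copy of the neuronal gene SRGAP2, and FAM72B, both in duplicated sequence and uncertain, with POLR2A at 19.5 and H3K4me3 at 14.9. USP22, the deubiquitinase of the SAGA coactivator complex, had POLR1A at 8.16 and POLR2A at 24.4. The H3K4me3 peak under both had 2.51, the lowest of all H3K4me3 members, and a separate H3K4me3 peak inside the gene, within 1 kb of the start, had 9.45. NANP, a phosphatase of sialic acid synthesis, had POLR1A at 6.71, POLR2A at 12.5 and H3K4me3 at 10.5, and TEC, a cytoplasmic tyrosine kinase, had 6.62, 11.2 and 10.4 in that order. TMEM127, an endosomal tumour suppressor with more than 1 RefSeq start, had POLR1A at 6.12, POLR2A at 9.33 and H3K4me3 at 3.07 at one of them. At its other start, close to that of CIAO1, POLR2A had 12.2 and H3K4me3 8.54, with no POLR1A peak. None of these 6 genes with POLR1A had H3K9me3 at an end.

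The zinc finger genes ZNF33B and ZNF33A, whose promoters are printed above, had POLR1A at 7.99 and 6.62, POLR2A at 14.3 and 14.97 and H3K4me3 at 13.8 and 13.5. They are close relatives, so a part of each value could come from reads of the other. ZNF654 and the overlapping LOC128031834 had POLR1A at 6.05, THAP1 on chromosome 8, a THAP-domain transcription factor gene, 5.41, ZNF25 5.25, and ZNF724 and NFXL1 5.10 each. All of these had POLR2A and H3K4me3. ZNF2 and AQP7B, named after their values were seen, had POLR1A at 4.32 each and no POLR2A peak at an end, and AQP7B had no H3K4me3 peak either.

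The highest POLR2A members at gene starts after USP22 were at FRYL (21.6, H3K4me3 9.13, no POLR1A) and SRGAP2C. The highest H3K4me3 members were at ZNF451, which encodes a SUMO ligase, with 31.0, KIAA1586 with 28.1, the lncRNA FAM88E with 27.03, and FRG1BP with 20.9. ZNF451 and KIAA1586 had POLR2A at 13.2 and 7.71 and no POLR1A. FRG1BP, a copy of the FRG1 gene on chromosome 20 and uncertain for that reason, had POLR1A at 6.69 and no POLR2A.

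On chromosome 11, 20 protein-coding 5′ ends lay in the window, and none had POLR1A, POLR2A or H3K4me3. Most of the protein-coding genes there are olfactory receptor genes, which are silent outside olfactory neurons, and 1 of them, OR10AG1, had H3K9me3 at 5.18. The other protein-coding genes with H3K9me3 at a known start were ZNF91 (4.93), PRIM2, the large subunit of DNA primase (4.36, with H3K4me3 at 15.02 and no POLR2A), GABRB1, a subunit of the GABA-A receptor (3.96), ZNF681 (3.62) and ZNF716 (3.12). Chromosome 2 was the contrast, with 34 protein-coding starts, of which 5 had POLR1A, 13 POLR2A, 22 H3K4me3 and none H3K9me3.

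Of 153 lncRNA genes with a start in the windows, 17 had H3K9me3 there (11.1%, 6.61 to 17.2), against 1.71% outside and 1.84% of all. They included LOC107987246 on chromosome 17 (10.7), LOC124902162 on chromosome 9 (7.09) and MIR663AHG, the host of MIR663A, on chromosome 20 (4.89). POLR1A was at 8 (5.23%, against 4.04% outside and 4.06% of all), each with POLR2A and H3K4me3, among them DANCR at 5.03. POLR2A was at 20 (13.1%, against 15.7% outside and 15.7% of all) and H3K4me3 at 31 (20.3%, against 20.7% outside and 20.7% of all). Of the 8 lncRNA genes with POLR1A, LINC00662 and LINC02987 were those with H3K9me3. Of 548 pseudogenes, counted by either end, 52 had H3K9me3 (9.49%, against 2.84% outside) and 8 had POLR1A (1.46%, against 0.974%).

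Groups of genes known from such regions, chosen by symbol and counted by the 5′ end or, where it is not known, by either end, gave small counts. Of 35 zinc finger genes in the windows, including antisense and pseudogene entries of that name, 9 had POLR1A (25.7%, against 9.62% of 686 outside), 17 POLR2A (48.6% against 42.9%), 19 H3K4me3 (54.3% against 57.9%) and 3 H3K9me3 (8.57% against 10.6%). ZNF25 and ZNF25-DT, which share 1 POLR1A peak, count as 2 of the 9. A further 1 of the 9, ZNF337-AS1, rests on the POLR1A peak at the start of NANP, and ZNF337 itself had none. Of 44 genes of duplicated families, 4 had POLR1A (9.09%, against 3.57% of 196 outside), 7 POLR2A (15.9% against 12.8%), 10 H3K4me3 (22.7% against 18.9%) and 9 H3K9me3 (20.5% against 6.12%). FRG1HP on chromosome 9 had all 4, with POLR1A at 9.21 from the peak just outside the window. FRG1 copies are nearly alike, so their values are uncertain.

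Entries named after ribosomal, transfer and small nuclear RNA, many of them pseudogenes, and mitochondrial-like entries had no POLR1A peak at their ends in the windows. Of 28 entries named after ribosomal RNA, all annotated as pseudogenes, none had POLR1A (7 of 521 outside, 1.34%) and none H3K4me3 (2.11% outside). All but RNA5-8SP2 and RNA5-8SP4 are named after 5S ribosomal RNA. RNA5-8SP4 alone had POLR2A, at 6.78 (3.57%, against 2.11% outside), and 2 had H3K9me3, RNA5SP528 at 4.99 and RNA5SP532 at 4.65 (7.14% against 2.30%). None of 12 transfer RNA entries had POLR1A, against 41 of 518 outside (7.92%). Among the 12, TRF-GAA10-1 and TRE-CTC13-1 are annotated as pseudogenes. TRG-CCC6-1 alone had POLR2A, at 5.50 (8.33%, against 31.1% outside), and none had H3K4me3 (27.2% outside) or H3K9me3 (1.35% outside). None of 31 small nuclear RNA entries had POLR1A, against 19 of 1814 outside (1.05%). Of the 31, RNVU1-4 and RNVU1-19 are annotated as small nuclear RNA genes and the others as pseudogenes. RNVU1-4 on chromosome 1 alone had POLR2A, at 8.66 (3.23%, against 3.53% outside), and H3K4me3, at 8.37 (3.23% against 2.37%). None of the 31 had H3K9me3 (0.827% outside). Of 38 mitochondrial-like entries, none had POLR1A, against 26 of 363 outside (7.16%). MTRNR2L9 alone had POLR2A, at 6.71 (2.63%, against 6.89% outside), 2 had H3K9me3 (5.26% against 11.3%) and none H3K4me3 (0.826% outside). The symbol rule of that group did not take in MTCYBP13, whose site is given above.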

How the data were processed

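HCT116 CUT&Tag peak lists for 4 targets were used as deposited, 1 list per target, on GRCh38 (named GRCh38 and hg38 in the submitters' processing notes). The tools listed there, without roles, are STAR, HTSeq 2.0.2, RSEM 1.3.3, SAMtools 1.6, deepTools 3.1.1 and FastQC 0.12.0. Settings of the peak caller, its control, any pooling of replicates and the handling of repeated sequence were not given in the sources used here. Of the values, the authors' signal column is a linear ratio (fold enrichment) per peak. The deposited −log10 q column was used for a threshold of 5. The layout columns (start, end and summit offset) were used for position alone, and the deposited integer score was not used.

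Members and gene groups were chosen with earlier results of these data known. A peak belonged to a window or flank by its summit. Overlap meant 1 shared base. Intervals are exact 95% binomial, cover counting error only and treat peaks as independent, which clustered peaks are not. Genes (59792) and 5′ ends came from RefSeq GRCh38.p14, and 27305 genes had a promoter entry, from which the start was derived. Chromosome 8 starts were not used here. A gene held a peak if it lay within 1 kb of the 5′ end or, where that is not known, of either end. Background shares cover chromosomes 1 to 22 and X, or for genes 1 to 7, 9 to 22 and X.

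Named were the 5 highest members of each list by fold enrichment, the highest POLR1A and H3K9me3 member of each chromosome, up to 15 protein-coding genes with POLR1A, up to 15 sites of all 4 lists, 5 POLR2A members on H3K9me3, 5 POLR1A members alone and up to 4 genes per group. Genes with H3K9me3 at a start, lncRNA genes and genes of small counts were named after their values were seen. The values of 1 protein-coding gene are not reported here. The overlap code was tested on simulated data. Python 3.11.15, numpy 2.4.6, pandas 2.3.3, scipy 1.17.1 and matplotlib 3.10.9 were used. Alternatives were other widths, a q threshold, equal list lengths, a left-out chromosome, membership by any base and other overlap and distance rules.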

Additional observations from a re-analysis of the deposited data

How the results depend on the processing

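Of 169 values under alternatives for 36 results, 99 stayed within the counting interval of the reported value or within 1.5 times of a count, 68 moved and 2 reversed. The 2 that reversed were the ratios of density in windows to flanks: POLR1A, 1.71 in the main analysis, was 0.984 at a half-width of 5 Mb, and H3K9me3, 1.33, was 0.840 at 2 Mb. All values that follow are for windows.

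At a half-width of 2 Mb there were 109 POLR1A, 75 POLR2A, 48 H3K4me3 and 463 H3K9me3 members, the density ratio was 1.12 for POLR1A, 0.267 for POLR2A and 0.219 for H3K4me3, POLR2A overlapped POLR1A in 44% and H3K9me3 in 41.3%, and H3K4me3 overlapped POLR1A in 35.4%, POLR2A in 68.75% and H3K9me3 in 27.1%. At 5 Mb there were 552 POLR2A, 436 H3K4me3 and 1206 H3K9me3 members, POLR1A overlapped POLR2A in 39.8%, H3K4me3 in 28.5% and H3K9me3 in 56.6%, POLR2A overlapped POLR1A in 18.3% and H3K9me3 in 10.5%, H3K4me3 overlapped H3K9me3 in 5.28%, and H3K9me3 overlapped POLR1A in 10.2%.

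With a −log10 q of at least 5 in every list there were 106 POLR1A, 97 POLR2A and 267 H3K9me3 members, and the density ratio was 2.21 for POLR1A and 2.01 for H3K9me3. POLR1A overlapped H3K9me3 in 83.02%, POLR2A overlapped H3K4me3 in 72.2%, H3K4me3 overlapped POLR1A in 10.6%, POLR2A in 46.4% and H3K9me3 in 4.64%, and H3K9me3 overlapped POLR1A in 28.8%. Median fold enrichment was 7.14 for POLR1A, 8.90 for POLR2A and 6.46 for H3K9me3, with widths of 467, 372 and 629 bp.

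With lists of equal length (4122 peaks, the strongest) there were 42 POLR2A, 57 H3K4me3 and 210 H3K9me3 members, and the density ratio was 0.538 for H3K4me3 and 1.83 for H3K9me3. POLR1A overlapped POLR2A in 14.4%, H3K4me3 in 7.47% and H3K9me3 in 40.8%, POLR2A overlapped POLR1A in 59.5% and H3K4me3 in 35.7%, H3K4me3 overlapped POLR2A in 26.3% and H3K9me3 in 3.51%, and H3K9me3 overlapped POLR1A in 28.1% and H3K4me3 in 0.952%.

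With an overlap of at least 50% of both peaks, POLR1A overlapped POLR2A in 18.97%, H3K4me3 in 6.32% and H3K9me3 in 37.9%, POLR2A overlapped POLR1A in 15.3%, H3K4me3 in 16.2% and H3K9me3 in 5.56%, H3K4me3 overlapped POLR1A in 6.40%, POLR2A in 20.3% and H3K9me3 in 2.91%, and H3K9me3 overlapped POLR1A in 8.40%, POLR2A in 1.53% and H3K4me3 in 0.636%. With summits within 500 bp, POLR1A met H3K9me3 in 54.6%. Within 500 bp of 5′ ends, H3K9me3 was at 2 protein-coding and 11 lncRNA genes. Without the chromosome with most members, and with membership by any base, no value moved by the rule given above. Without that chromosome the density ratio was still lower, at 1.37 for POLR1A and 1.20 for H3K9me3. With each chromosome left out in turn, chosen after seeing the data, POLR1A overlapped H3K9me3 in 61.3% (without chromosome 4) to 70.4% (without chromosome 1).

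Why these values moved was not tested, except that fewer or wider windows and shorter lists change counts by construction. No paired analysis was possible because the lists carry no values per replicate, and leaving out a replicate was not possible for the same reason. With 1 list per target no spread between replicates is known. Counts under 10 per chromosome are imprecise. Depth, the share of each window that reads can be placed in, and the length of satellite arrays and gaps in the windows were not measured here.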
